A study of Mus musculus with 12 samples.

Results

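The genes described here are 8 negative regulators of ERK signalling, most of them known to be induced by the pathway they restrain: the phosphatase genes Dusp4, Dusp5 and Dusp6, the Sprouty genes Spry1, Spry2 and Spry4, and the Sprouty-related genes Spred1 and Spred2. They were named as members of known families, with earlier results of these data already known, and make up 8 of the 48448 genes in the expression table. All 8 passed the filter on low values and were among the 16970 genes tested. Colon RNA was sequenced from C57BL/6 mice of a colitis-associated cancer model, in which tumours arise in an inflamed colon. Synbindin, encoded by Trappc4, belongs to the TRAPP vesicle-tethering machinery of the Golgi, and the study compared mice labelled Synbindin flox with mice labelled Synbindin ΔIEC, in tumours and in colon adjacent to tumours. There were 12 libraries in 4 groups of 3: flox adjacent, ΔIEC adjacent, flox tumour and ΔIEC tumour. The labels give no age, sex, agent or dose, and do not name the Cre driver behind the deletion. They call the material scraped epithelium in one place and dissected tumour and adjacent tissue in another. They do not say that the 3 libraries of a group came from separate mice, so each p-value reflects only how far these libraries varied.

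In the ERK cascade, a receptor tyrosine kinase that has bound its ligand loads RAS with GTP, and RAF, MEK and ERK are then phosphorylated in turn. Active ERK drives transcription of many of its own brakes. The Dusp enzymes remove phosphate from the threonine and the tyrosine that activate ERK, Dusp6 in the cytoplasm and Dusp4 and Dusp5 in the nucleus. The Sprouty proteins act between the receptor and RAF, and the Spred proteins bring neurofibromin, which switches RAS off, to the membrane. In the intestine, this pathway carries growth signals to crypt cells, and its feedback genes are widely read as a sign of pathway output.

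The 3 phosphatase genes share a catalytic signature, and its coding sequence is printed here because 1 of them, Dusp4, carries the main difference between tissues. The 60 bases of each lie within the last exon of the gene and are read 5′ to 3′ on the coding strand of GRCm38 (GENCODE M21). Capitals mark the codons from the histidine and the catalytic cysteine to the arginine that hold the substrate's phosphate. The stretch of Dusp4 is chr8:34818415-34818474 in exon 4 of 4, that of Dusp5 is chr19:53540933-53540992 in exon 4 of 4, and that of Dusp6 is chr10:99266009-99266068 in exon 3 of 3, all on the plus strand.
Dusp4: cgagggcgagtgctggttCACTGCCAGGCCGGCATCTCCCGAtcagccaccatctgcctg
Dusp5: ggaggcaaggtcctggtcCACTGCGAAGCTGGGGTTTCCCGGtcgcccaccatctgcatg
Dusp6: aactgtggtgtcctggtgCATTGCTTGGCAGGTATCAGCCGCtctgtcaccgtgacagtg
Dusp4 and Dusp5 were identical at 43 of the 60 bases (71.7%), Dusp4 and Dusp6 at 35 (58.3%), and Dusp5 and Dusp6 at 31 (51.7%).

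Spry1 and Spry2 are shown around the tyrosine whose phosphorylation lets Sprouty proteins bind adaptors of the receptor, because Spry1 passed the test of tumour against adjacent colon in flox mice and Spry2, which shares the motif, did not. Capitals mark the 6 codons of the motif. The Spry1 stretch is chr3:37642745-37642798 on the plus strand, in exon 3 of 3. The Spry2 stretch is chr14:105893556-105893609 on the minus strand, in exon 2 of 2.
Spry1: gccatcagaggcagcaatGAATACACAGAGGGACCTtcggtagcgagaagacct
Spry2: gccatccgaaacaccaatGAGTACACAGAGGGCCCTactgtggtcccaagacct
The stretches were identical at 41 of 54 bases (75.9%), and at 16 of the 18 bases of the motif. No sequence of 50 bases in the transcripts of any of the 8 genes occurred in another of them, so reads of that length tell the family members apart. In Spred2 alone, 62 of 4618 such sequences (1.34%) also occurred in another gene, Gm14612. On the opposite strand, Spry1 overlaps Gm42922 (0.185 FPKM or less in every library), Spry4 overlaps 2 small RNA genes listed at 0, and Dusp5 overlaps AC137853.2. Whether fragments were counted by strand is not stated, so those of overlapping genes cannot be told apart.

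Values are FPKM per gene: fragments per kilobase of transcript, scaled to each library's mapped fragments, summed over the gene's transcripts. FPKM is per length, so levels of different genes can be set side by side. Differences and tests are on the scale of log2(FPKM + 1), which understates the change of genes near 1 FPKM. A gene is said to have risen or fallen where limma's moderated test across all 16970 genes gave a Benjamini-Hochberg adjusted p below 0.05.

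Summed FPKM per library ranged from 534806 to 821487, and the read depth behind it is unknown. Libraries of the same group correlated at 0.912 to 0.962 over the tested genes. Trappc4 stood at 17.0 ± 0.285 FPKM in flox adjacent (SD, n = 3) and 11.1 ± 1.30 in ΔIEC adjacent, and at 19.0 ± 1.73 in flox tumour and 11.3 ± 1.39 in ΔIEC tumour. The ΔIEC means were 64.9% and 59.6% of the flox means, and all 6 ΔIEC libraries lay below all 6 flox libraries, as the labels call for. Libraries flox adjacent 1, ΔIEC adjacent 2 and ΔIEC adjacent 3 stood apart from the other 3 adjacent libraries, with summed fibroblast markers of 274, 363 and 310 FPKM against 75.6 to 127. Without these 3 libraries, an alternative chosen after seeing the data, Dusp4, Spry1 and Spred1 still passed the tumour test in flox mice described next (limma adjusted p = 0.00378, 0.0273 and 0.0250), and in ΔIEC mice, with 1 adjacent library assumed to vary like the other groups, Dusp4 and Spred1 passed (limma adjusted p = 0.0178 and 0.0296).

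In flox mice, 3 of the 8 feedback genes rose in tumours: Dusp4, Spry1 and Spred1. None fell. The change in Dusp4 stood far above the others, at 5.15 times its level in adjacent colon, while Spry1 and Spred1 stood at 1.48 and 1.35 times theirs. Of all genes tested, 16.6% rose and 19.7% fell in this comparison, 36.3% in all, so a share of 3 in 8 (37.5%) is near the background. The median difference over the 8 genes was 0.46 on the log2 scale, beside a median of -0.01 over all genes. In ΔIEC mice, 1 of the 8 genes rose in tumours, Dusp4, and none fell, where 13.9% of all genes rose and 15.5% fell (29.4% in all). The median of the 8 differences was 0.26, beside -0.03 over all genes. In both genotypes 6 of the 8 differences were above 0, and the same 2 genes, Spry2 and Spred2, were below 0. Flox tumours and flox adjacent libraries did not overlap for 5 of the 8 genes, 4 with tumours higher (Dusp4, Spry1, Spry4 and Spred1) and 1 with tumours lower (Spred2), where 53.5% of all genes did not overlap (26.4% higher, 27.1% lower). ΔIEC tumours lay above ΔIEC adjacent libraries for Dusp4 and Spry1 and below them for none, where 43.7% of all genes did not overlap (20.8% higher, 22.9% lower).

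**Figure D1:**
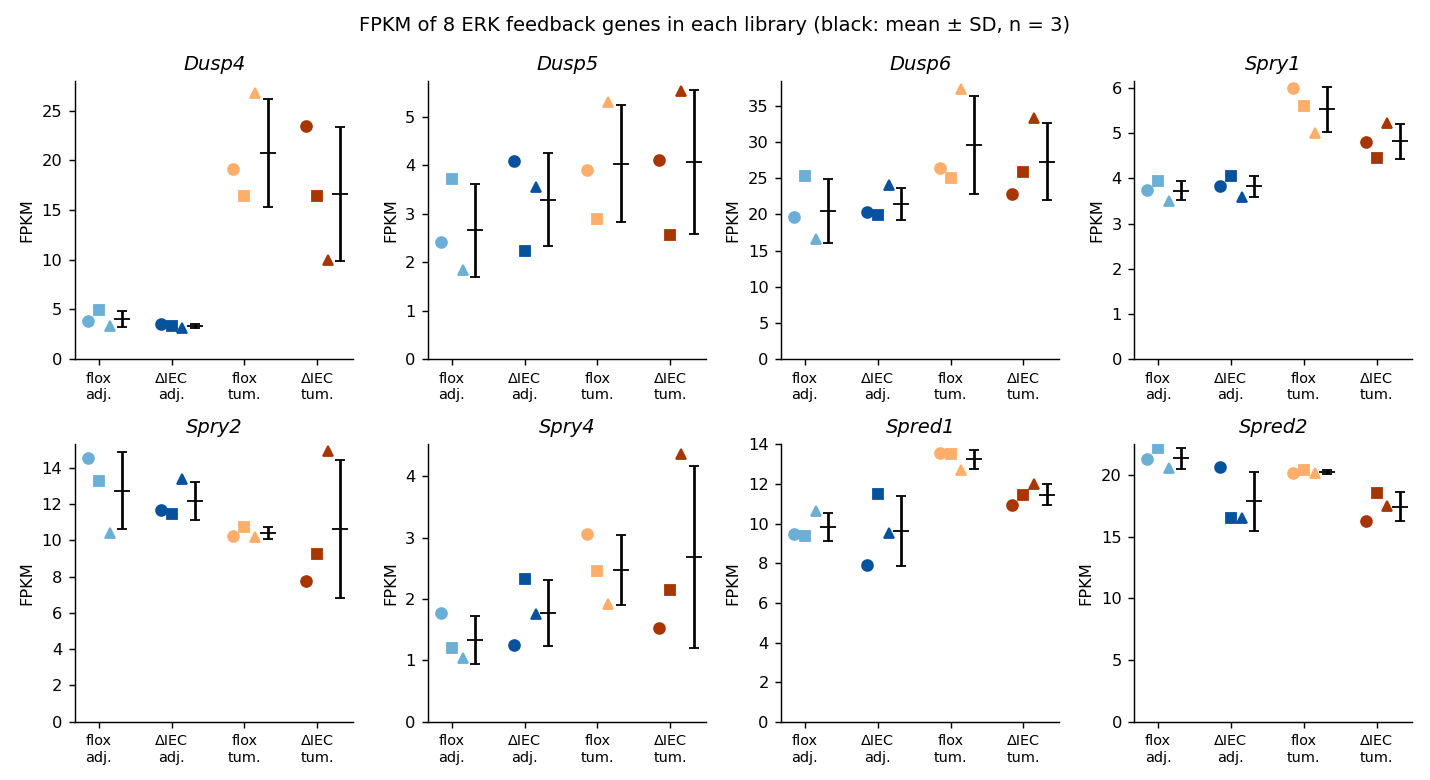
FPKM (vertical axis, linear, from 0) of the 8 genes in each of the 12 libraries by group; circles, squares and triangles are replicates 1, 2 and 3, and black bars are the mean ± SD of 3 libraries. All 6 tumours lay above all 6 adjacent libraries for Dusp4 (10.03 or more against 4.94 or less) and Spry1, and Spred2 stayed between 16.3 and 22.2 throughout.

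Dusp4 encodes a nuclear phosphatase that acts on ERK and on other MAP kinases (ENSMUSG00000031530, chr8:34807297-34819894, plus strand). Its FPKM was 3.82, 4.94 and 3.33 in flox adjacent 1 to 3, and 19.1, 16.4 and 26.8 in flox tumour 1 to 3. In ΔIEC mice it was 3.54, 3.31 and 3.10 in adjacent colon and 23.5, 16.4 and 10.03 in tumours. The adjacent libraries lay close together in both genotypes, and every tumour was at least at the level of 10.03 seen in ΔIEC tumour 3, which was itself above every adjacent library. Across all genes, 13.5% had all 6 tumours above all 6 adjacent libraries. The flox tumour mean was 20.8 ± 5.41 against 4.03 ± 0.829 (SD, n = 3 each), a ratio of 5.15. On the log2 scale Dusp4 rose by 2.10 (SE 0.27, 95% interval 1.503 to 2.69, limma adjusted p = 5.69e-04), rank 351 of the 16970 genes by p. In ΔIEC mice the means were 16.6 ± 6.72 against 3.32 ± 0.224, a ratio of 5.01. The log2 difference was 1.96 (SE 0.27, 95% interval 1.36 to 2.55, limma adjusted p = 0.00145), rank 256. The exact permutation test of either comparison gave p = 0.1, two-sided, the smallest that 3 libraries against 3 allow. Dusp4 kept its call when any single library was left out, with differences of 1.91 to 2.25 in flox and 1.68 to 2.26 in ΔIEC mice.

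Dusp5 encodes a nuclear phosphatase specific to ERK (ENSMUSG00000034765, chr19:53529109-53542431, plus strand). Its FPKM was 2.41, 3.72 and 1.85 in flox adjacent and 3.91, 2.89 and 5.30 in flox tumour libraries 1 to 3. ΔIEC libraries had 4.09, 2.22 and 3.56 in adjacent colon and 4.10, 2.55 and 5.52 in tumours. Tumour and adjacent values overlapped in both genotypes, and the spread within a group was as wide as the distance between means. The log2 difference was 0.46 in flox (95% interval -0.17 to 1.10, limma adjusted p = 0.229) and 0.22 in ΔIEC mice (-0.42 to 0.86, limma adjusted p = 0.596). The flox interval therefore holds a rise of up to 1.10 log2 units as well as a small fall.

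Dusp6 encodes the cytoplasmic phosphatase of ERK (ENSMUSG00000019960, chr10:99263231-99267489, plus strand) and had the highest mean of the 3 in every group. It stood at 19.6, 25.2 and 16.6 FPKM in flox adjacent and at 26.3, 25.0 and 37.4 in flox tumour libraries. In ΔIEC mice it stood at 20.3, 19.9 and 24.0 in adjacent colon and 22.8, 25.8 and 33.3 in tumours. Most tumours were above most adjacent libraries, but flox tumour 2 fell just under flox adjacent 2, and ΔIEC tumour 1 under ΔIEC adjacent 3. The means were 29.6 ± 6.79 against 20.5 ± 4.40 in flox and 27.3 ± 5.38 against 21.4 ± 2.23 in ΔIEC mice (SD, n = 3 each). The log2 difference was 0.51 in flox (SE 0.20, 95% interval 0.07 to 0.95, limma adjusted p = 0.0681) and 0.32 in ΔIEC mice (-0.12 to 0.76, limma adjusted p = 0.243). Without flox adjacent 2, the highest adjacent library, the flox difference was 0.66 and past the threshold (limma adjusted p = 0.0449). Quantile normalization also took it past the threshold, at 0.69 (limma adjusted p = 0.0165).

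The make-up of the phosphatase family within a library does not depend on how libraries are scaled, and it differed between tissues. Dusp4 took 14.8%, 14.6% and 15.3% of the summed FPKM of Dusp4, Dusp5 and Dusp6 in flox adjacent, and 12.7%, 13.0% and 10.1% in ΔIEC adjacent libraries. In flox tumours its share was 38.7%, 37.0% and 38.6%, and in ΔIEC tumours 46.6%, 36.6% and 20.5%. The share of Dusp6 ran from 72.7% to 78.3% in the 6 adjacent libraries and from 45.3% to 68.1% in the 6 tumours. Flox tumours were alike in these shares although their summed FPKM differed (49.3, 44.3 and 69.5). ΔIEC tumours were the reverse: their sums were close (50.4, 44.8 and 48.8) and their shares far apart. In adjacent libraries the sum was 21.7 to 33.9.

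**Figure D2:**
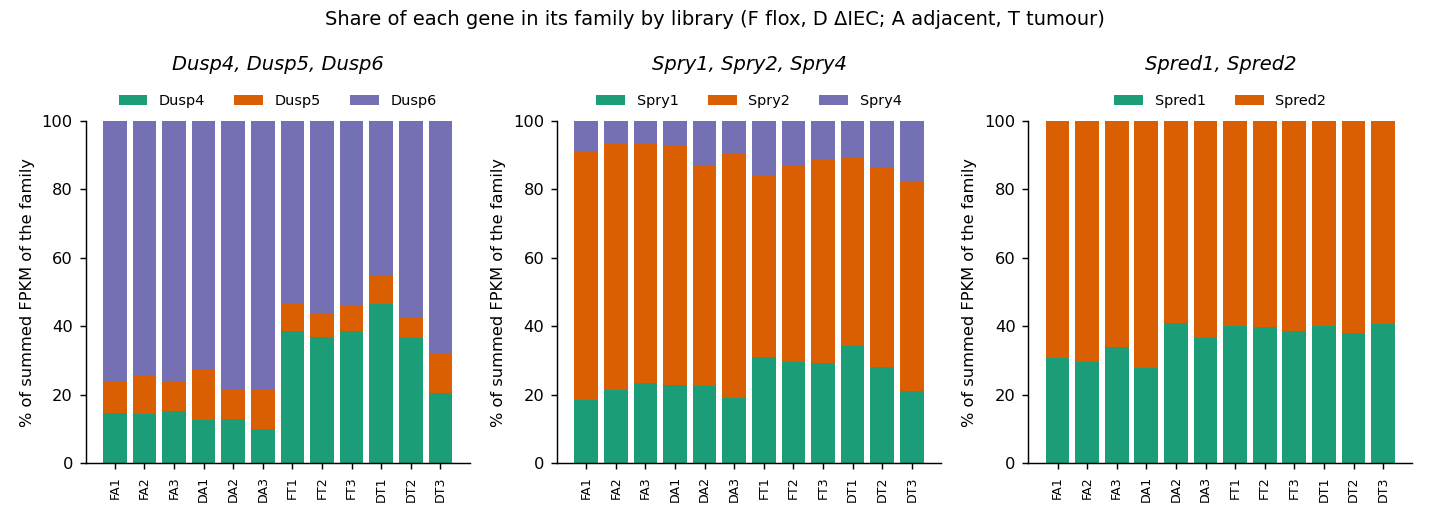
Share of each gene (vertical axis, percent from 0 to 100) in the summed FPKM of its family, as stacked bars for the 12 libraries, with F for flox, D for ΔIEC, A for adjacent and T for tumour. Dusp4 held 10.1% to 15.3% of the phosphatase sum in adjacent colon and 20.5% to 46.6% in tumours, and Spry2 held at least 64.2% of the Sprouty sum in adjacent colon and at most 60.9% in tumours.

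Spry1 (ENSMUSG00000037211, chr3:37639947-37644598, plus strand) encodes a Sprouty protein. Its FPKM was 3.75, 3.94 and 3.50 in flox adjacent and 5.99, 5.60 and 5.004 in flox tumour libraries 1 to 3. The ΔIEC values were 3.83, 4.06 and 3.59 in adjacent colon and 4.81, 4.44 and 5.22 in tumours. The adjacent values were the tightest among the 3 Sprouty genes, and all 6 tumours lay above all 6 adjacent libraries. The means of flox mice were 5.53 ± 0.498 against 3.73 ± 0.219, a ratio of 1.48, and Spry1 rose by 0.46 on the log2 scale (SE 0.11, 95% interval 0.22 to 0.71, limma adjusted p = 0.00945). In ΔIEC mice the means were 4.82 ± 0.388 against 3.82 ± 0.236, a ratio of 1.26. There the log2 difference of 0.27 (SE 0.11, 95% interval 0.03 to 0.52, limma adjusted p = 0.0888) did not pass the threshold.

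The gene sum of Spry1 hides transcript values that swung between libraries. Spry1-201 and Spry1-203 encode the same protein and share nearly all of their sequence: 3.58% and 2.41% of their 50-base sequences occurred in no other Spry1 transcript. Spry1-203 took from 0.04996% of the gene's FPKM in 1 library to 99.1% in another, and Spry1-201 from 0.0171% to 97.5%. In ΔIEC adjacent 1 the values were 3.21 FPKM for Spry1-201 and 0.00191 for Spry1-203, and in ΔIEC tumour 2 they were 7.58e-04 and 4.16. The gene sums of these libraries were 3.83 and 4.44. When the largest transcript alone stood for the gene, the log2 difference was 0.11 in flox (limma adjusted p = 0.860) and 1.69 in ΔIEC mice (limma adjusted p = 0.0138), so the Spry1 result holds for the sum of its transcripts.

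**Figure D3:**
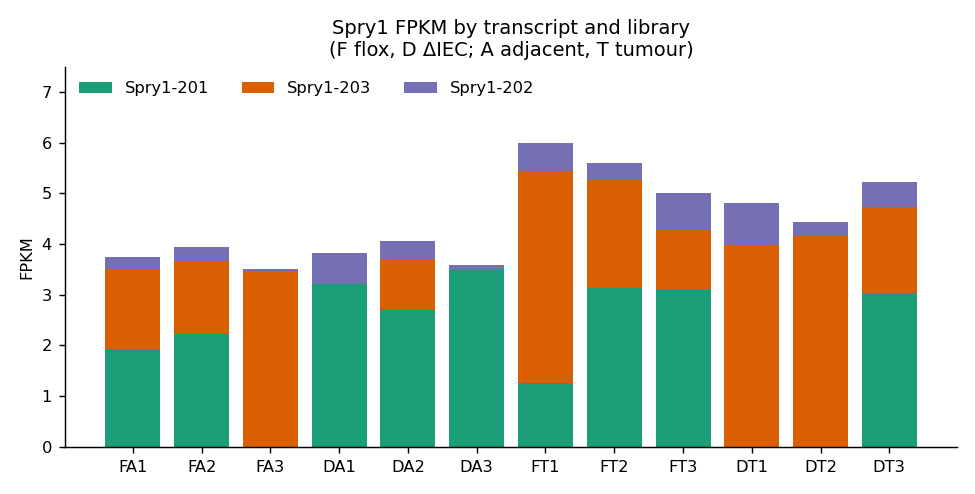
FPKM of Spry1 (vertical axis, linear, from 0) in the 12 libraries, stacked by transcript, with F for flox, D for ΔIEC, A for adjacent and T for tumour. Spry1-201 and Spry1-203 trade places between libraries of the same group, while bar heights stay at 3.50 to 4.06 in adjacent colon and 4.44 to 5.99 in tumours.

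Spry2 (ENSMUSG00000022114, chr14:105891947-105896819, minus strand) was the most abundant Sprouty gene in every library. Its FPKM was 14.5, 13.3 and 10.4 in flox adjacent and 10.3, 10.8 and 10.2 in flox tumour libraries. In ΔIEC mice it was 11.7, 11.5 and 13.4 in adjacent colon and 7.74, 9.25 and 14.9 in tumours. Flox tumours were alike, with flox tumours 1 and 3 just below every adjacent library, and ΔIEC tumour 3 was the highest of all 12 libraries. The log2 difference was -0.26 in flox (95% interval -0.70 to 0.19, limma adjusted p = 0.339) and -0.22 in ΔIEC mice (-0.67 to 0.22, limma adjusted p = 0.427). Without ΔIEC tumour 3 the ΔIEC difference was -0.47 and past the threshold (limma adjusted p = 0.0391). With libraries rescaled on protein-coding genes, the sign turned, to 0.16 and 0.06.

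Spry4 (ENSMUSG00000024427, chr18:38586247-38601415, minus strand) was the least abundant of the 8 genes in each group's mean. Its FPKM was 1.78, 1.20 and 1.03 in flox adjacent and 3.05, 2.46 and 1.91 in flox tumour libraries. ΔIEC libraries had 1.24, 2.33 and 1.75 in adjacent colon and 1.53, 2.15 and 4.36 in tumours. The flox groups did not overlap, and the ΔIEC groups did. The log2 difference was 0.57 in flox (95% interval -0.03 to 1.18, limma adjusted p = 0.125) and 0.35 in ΔIEC mice (-0.25 to 0.96, limma adjusted p = 0.358).

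Within the Sprouty family, Spry2 held 69.6% to 72.5% of the summed FPKM in flox adjacent and 64.2% to 71.4% in ΔIEC adjacent libraries. It held 53.1% to 59.6% in flox tumours and 55.0% to 60.9% in ΔIEC tumours, below every adjacent library. The sum itself overlapped between tissues, at 14.9 to 20.1 FPKM in adjacent colon and 14.1 to 24.5 in tumours.

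Spred1 (ENSMUSG00000027351, chr2:117121374-117182279, plus strand) encodes a membrane partner of neurofibromin. Its FPKM was 9.48, 9.36 and 10.6 in flox adjacent and 13.6, 13.5 and 12.7 in flox tumour libraries. The ΔIEC values were 7.93, 11.5 and 9.52 in adjacent colon and 10.9, 11.5 and 12.02 in tumours. The flox groups were both tight and did not overlap, and ΔIEC adjacent 2 lay within the ΔIEC tumours. The flox means were 13.3 ± 0.479 against 9.82 ± 0.705, a ratio of 1.35, and Spred1 rose by 0.40 on the log2 scale (SE 0.12, 95% interval 0.13 to 0.67, limma adjusted p = 0.0269). In ΔIEC mice the log2 difference was 0.24 (95% interval -0.03 to 0.51, limma adjusted p = 0.159). The flox call was lost without flox adjacent 1 (limma adjusted p = 0.0643), flox adjacent 2 (0.0894), flox tumour 1 (0.0739), flox tumour 2 (0.0724) or flox tumour 3 (0.0511), with differences of 0.37 to 0.43. Without ΔIEC adjacent 2 the ΔIEC difference was 0.36 and past the threshold (limma adjusted p = 0.0344).

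Spred2 (ENSMUSG00000045671, chr11:19924375-20024026, plus strand), the other neurofibromin partner, hardly moved with tissue. Its FPKM was 21.3, 22.2 and 20.5 in flox adjacent and 20.1, 20.4 and 20.1 in flox tumour libraries. In ΔIEC mice it was 20.6, 16.5 and 16.5 in adjacent colon and 16.3, 18.6 and 17.5 in tumours. Flox tumours lay just under the flox adjacent libraries without overlap, and the ΔIEC groups overlapped. The log2 difference was -0.07 in flox (95% interval -0.30 to 0.15, limma adjusted p = 0.593) and -0.03 in ΔIEC mice (-0.25 to 0.19, limma adjusted p = 0.856). Neither interval reached further than 0.30 below or 0.19 above 0 on this scale. Rescaling on protein-coding genes turned the sign, to 0.36 in flox (limma adjusted p = 0.0145) and 0.27 in ΔIEC mice. The share of Spred1 in the sum of both Spred genes was 29.7% to 34.1% in flox adjacent and 38.7% to 40.2% in flox tumours, without overlap, and 27.8% to 41.0% in ΔIEC adjacent and 38.2% to 40.8% in ΔIEC tumours.

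**Figure D4:**
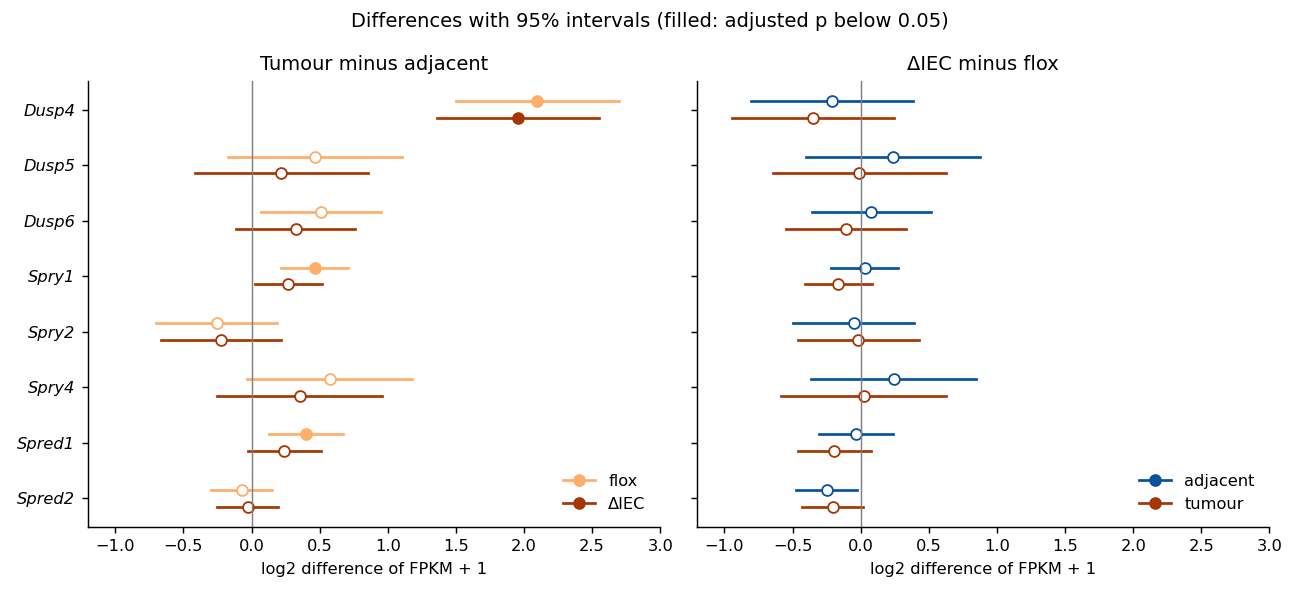
Differences of log2(FPKM + 1) (horizontal axis) with their 95% intervals for the 8 genes: tumour minus adjacent at the left and ΔIEC minus flox at the right, filled where the limma adjusted p was below 0.05. Dusp4 stands at 2.10 and 1.96 at the left, the other genes lie between -0.26 and 0.57, and no point at the right is filled.

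The order of the 8 genes by mean level changed with tissue mainly through Dusp4. In flox adjacent colon Spred2 and Dusp6 came first and overlapped, followed by Spry2 and Spred1, which also overlapped, and then by Dusp4, Spry1, Dusp5 and Spry4. In flox tumours Dusp6 came first, with Dusp4 next and overlapping both Dusp6 and Spred2. Spred1 stood below these, and above Spry2, Spry1, Dusp5 and Spry4. In ΔIEC tumours Dusp6 had the highest mean and did not overlap Spred2, the next by mean. Dusp4 overlapped both, and at 23.5 FPKM in ΔIEC tumour 1 it stood above Dusp6 at 22.8. Spry1, Dusp5 and Spry4 were the 3 lowest genes in both tumour groups, with neighbours overlapping.

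Scaling bears on the small differences. Small RNA genes and other genes that code no protein are part of each library's total. With libraries rescaled on protein-coding genes, the median of all genes moved from -0.01 to 0.35 in flox and from -0.03 to 0.22 in ΔIEC mice. The genome-wide counts then moved from 2817 higher and 3346 lower to 6540 higher and 1706 lower in flox mice, and from 2357 and 2624 to 4414 and 1448 in ΔIEC mice. Of the 8 feedback genes, 7 were then past the threshold in flox (all but Spry2) and 4 in ΔIEC mice (Dusp4, Dusp6, Spry1 and Spred1). The flox difference of Spry1 was then 0.83, and that of Spred1 0.81, beside the median of 0.35 over all genes. Dusp4 passed under every scaling run.

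Cell type markers moved with tissue too, beside 36.3% of all genes called in flox and 29.4% in ΔIEC mice, in either direction. In flox mice the called shares of macrophage markers (37.5%), mast cell markers (33.3%) and proliferation genes (33.3%) were near that background. So was the share of epithelial markers in ΔIEC mice (30%). By direction, 16.6% of all genes rose and 19.7% fell in flox tumours, and 13.9% rose and 15.5% fell in ΔIEC tumours. The called macrophage markers and proliferation genes all rose in flox tumours, and the called epithelial markers all fell in ΔIEC tumours. Of 10 epithelial markers, 9 fell in flox tumours and 3 in ΔIEC tumours, and their summed FPKM was 7377 to 10031 in flox adjacent, 5803 to 7952 in ΔIEC adjacent, 4149 to 5790 in flox tumours and 4990 to 5958 in ΔIEC tumours. Of 9 fibroblast markers, 5 rose in flox and 1 in ΔIEC tumours, with sums of 75.6 to 274, 76.2 to 363, 377 to 641 and 327 to 717 in the same order of groups. Of 9 endothelial markers, 7 rose in flox and 0 in ΔIEC tumours, with sums of 11.96 to 29.8, 14.0 to 49.1, 46.8 to 58.7 and 42.0 to 59.8. Of 6 absorptive colonocyte markers, 5 fell in flox and 4 in ΔIEC tumours, from sums of 1549 to 7920 in adjacent colon to 108 to 249 in tumours. All 6 neutrophil markers rose in both genotypes, from sums of at most 8.12 in adjacent colon to at least 137 in tumours. Of 5 squamous keratinocyte markers tested, 5 rose in flox and 2 in ΔIEC tumours, with sums of at most 4.44 in adjacent colon, 23.1 to 395 in flox tumours and 18.9 to 40.8 in ΔIEC tumours. Of 8 macrophage markers, 3 rose in flox and 1 in ΔIEC tumours, with sums of 34.2 to 65.6 in flox adjacent, 25.0 to 133 in ΔIEC adjacent, 86.7 to 177 in flox tumours and 136 to 151 in ΔIEC tumours. Of 6 mast cell markers, 1 rose and 1 fell in flox tumours, and 3 rose and 1 fell in ΔIEC tumours, with sums of 30.3 to 116, 32.6 to 54.7, 14.4 to 149 and 90.03 to 814 in the same order of groups. Of 6 proliferation genes, 2 rose in flox and 0 in ΔIEC tumours, and the one neuron and glia marker tested, Ret, rose in both. No smooth muscle, T cell, or B and plasma cell marker passed the test in either genotype.

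Genes that mark position along the colon differed as well, where 16.6% of all genes rose in flox and 13.9% in ΔIEC tumours. Of 6 Hox genes of the distal gut, 4 rose in both genotypes (Hoxd10, Hoxd11, Hoxd12 and Hoxd13), and the median of the 6 differences was 2.55 for flox and 2.80 for ΔIEC tumours. Their summed FPKM was 189.6, 35.8 and 7.57 in flox adjacent 1 to 3 and 49.7, 61.4 and 130.4 in ΔIEC adjacent 1 to 3, against 145 to 177 in flox tumours and 135 to 152 in ΔIEC tumours. The adjacent libraries thus spread widely, with flox adjacent 1 above all 6 tumours and the other 5 below them. The labels do not give the position along the colon from which a sample came, and its part in the tumour differences was not tested. No marker of the lists given here was at 0 in all libraries. The part of these cells in the results for Dusp4, Spry1 and Spred1 was not tested, and in bulk RNA fewer cells of a type and less RNA per cell cannot be told apart.

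Whether the Synbindin genotype changed the feedback genes was asked in each tissue. No feedback gene passed the test in adjacent colon or in tumours, and neither did any other of the 16970 genes (0% called in each). Trappc4 itself did not pass, at a log2 difference of -0.59 in adjacent colon (limma adjusted p = 0.931) and -0.70 in tumours. The test thus missed the difference in Trappc4 that the labels call for. At an unadjusted p below 0.05, limma counted 702 genes in adjacent colon and 317 in tumours, where 848 would be expected by chance, with 1 feedback gene among them in adjacent colon and 0 in tumours. These comparisons share their libraries with those of tumour against adjacent colon.

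In adjacent colon, 4 of the 8 ΔIEC minus flox differences were above 0 and 4 below, with a median near 0, and the groups overlapped for all 8 (7.71% of all genes did not, 2.56% with ΔIEC higher and 5.14% lower). Spred2 was the one below an unadjusted p of 0.05, at 17.9 ± 2.38 FPKM in ΔIEC against 21.4 ± 0.826 in flox libraries (SD, n = 3 each). Its log2 difference was -0.25 (SE 0.10, 95% interval -0.47 to -0.03, limma adjusted p = 0.931). ΔIEC adjacent 1 at 20.6 lay within the flox range, just above flox adjacent 3 at 20.5, while ΔIEC adjacent 2 and 3 both stood at 16.5. Those 2 libraries are among the 3 with high fibroblast markers, and their B and plasma cell markers summed to 1012 and 836 FPKM against 160 to 244 in the other 4 adjacent libraries. Flox adjacent 1, which shares the high fibroblast markers, had 21.3 FPKM of Spred2, and the part of these cells in the difference was not tested. Without the 3 libraries high in fibroblast markers, ΔIEC adjacent 1 alone stood for its group, and the Spred2 difference was -0.05. The other 7 differences ran from -0.21 for Dusp4 to 0.24 for Spry4. The interval for Spry1, -0.22 to 0.27, was the narrowest of these 7, and that for Dusp5, -0.40 to 0.87, the widest.

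In tumours, 7 of the 8 differences were below 0, with a median of -0.14 beside -0.01 over all genes, and their adjusted p were all 1 (limma). Spred1 and Spred2 had ΔIEC tumours below flox tumours without overlap. Of all genes, 6.77% did not overlap, 3.03% with ΔIEC tumours higher and 3.74% lower. Spred2 stood at 17.4 ± 1.15 FPKM in ΔIEC tumours and 20.2 ± 0.164 in flox tumours, a log2 difference of -0.21 (SE 0.10, 95% interval -0.43 to 0.02). Spred1 stood at 11.5 ± 0.549 and 13.3 ± 0.479, a log2 difference of -0.19 (95% interval -0.46 to 0.07). For Dusp4 the difference was -0.35 (95% interval -0.95 to 0.24), with ΔIEC tumour 3 at 10.03 and ΔIEC tumour 1 at 23.5 on either side of 2 flox tumours. A lower Dusp4 level in ΔIEC tumours of up to 0.95 log2 units, or a higher one of up to 0.24, therefore lies within the interval. For Spry1 the difference was -0.16 (95% interval -0.41 to 0.08), and for Dusp5, Dusp6, Spry2 and Spry4 it ran from -0.11 to 0.02.

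The test of whether the tumour difference itself depended on genotype also called 0 feedback genes and 0 of all genes, with 448 genes at an unadjusted p below 0.05 (limma) and 0 feedback genes among them. The Dusp4 term was -0.14 (95% interval -0.98 to 0.70), and that of Spry1 was -0.19 (-0.54 to 0.15). For Spred1 it was -0.16 (95% interval -0.54 to 0.22). Spry1 and Spred1 were thus past the threshold in flox and not in ΔIEC mice, without a difference between genotypes that passed its own test.

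The ΔIEC tumours varied among themselves along more than 1 gene. ΔIEC tumour 3 was the highest of the 6 tumours for Dusp5, Spry2 and Spry4 and the lowest for Dusp4. ΔIEC tumour 1 was the lowest of the 6 for 5 of the 8 genes, and stood second of the 6 for Dusp4. ΔIEC tumour 3 had the highest summed fibroblast markers (717 FPKM) and B and plasma cell markers (599) of the 6 tumours, and ΔIEC tumour 1 the lowest fibroblast markers (327) and the highest neutrophil markers (614). The part of these cells in the spread was not tested.

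The genes whose profiles over the 12 libraries were most like those of the called members were found from the root mean square difference of log2(FPKM + 1), each gene centred on its own mean. For Dusp4, whose own SD over the libraries was 1.06 log2 units, the nearest were Dach1 at 0.13 and Rdh10 at 0.18. Dach1 had mean FPKM of 1.66 in flox adjacent, 1.44 in ΔIEC adjacent, 11.95 in flox tumours and 8.94 in ΔIEC tumours, and in ΔIEC tumours 1 to 3 it stood at 13.8, 8.70 and 4.37, in the order seen for Dusp4. Rdh10, a retinol dehydrogenase gene, stood at 55.6, 34.1 and 21.1 in those 3 tumours. For Spry1 (own SD 0.21) the nearest were Phf10 at 0.07 and Kremen1 at 0.08, and for Spred1 (own SD 0.21) they were Ado at 0.07 and Snrpb at 0.08. Beside the genes' own SDs, these distances are larger for Spry1 and Spred1 than for Dusp4.

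The rest of the pathway was read from lists chosen by role, and each count of called genes stands beside the share of all genes called in either direction (36.3% for flox and 29.4% for ΔIEC mice). Of 10 other Dusp, Spry and Spred genes listed and tested, 4 rose and 1 fell in flox tumours, and 2 rose and 1 fell in ΔIEC tumours. These are 50% and 30% of the list, and the share in ΔIEC mice is near the 29.4% of all genes. Dusp14, a small dual-specificity phosphatase gene, stood at 6.05 ± 2.90 FPKM in flox tumours and 1.07 ± 0.484 in flox adjacent colon (log2 difference 1.72, limma adjusted p = 0.00188), and rose by 1.22 in ΔIEC mice. Dusp9, which encodes another cytoplasmic ERK phosphatase, rose by 1.05 and 0.94 from levels below 1 FPKM. Dusp3 fell from 12.8 ± 0.786 to 6.41 ± 1.22 FPKM in flox (-0.91, limma adjusted p = 0.00736) and by 0.84 in ΔIEC mice, and did not pass with libraries rescaled on protein-coding genes (-0.51, limma adjusted p = 0.104 in flox). Among these 10 and the 8 feedback genes, the flox difference of Dusp14 came next after that of Dusp4.

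Among 13 other brakes on receptors or RAS, 1 rose and 4 fell in flox tumours, and 1 rose and 3 fell in ΔIEC tumours. The shares of 38.5% and 30.8% are near those of all genes (36.3% and 29.4%). The one that rose was Il17rd, also called Sef, which holds active MEK and ERK at the Golgi: it stood at 4.33 ± 0.262 FPKM in flox tumours against 1.03 ± 0.217 (log2 difference 1.39, limma adjusted p = 7.50e-04) and at 3.39 ± 1.11 against 1.11 ± 0.280 in ΔIEC mice (1.04, limma adjusted p = 0.00431). Lrig3, a membrane protein gene of a family that includes brakes on ErbB receptors, fell from 24.2 ± 0.634 to 4.01 ± 1.57 FPKM in flox mice (-2.38, limma adjusted p = 0.00121) and by 1.88 in ΔIEC mice. Cbl, the ubiquitin ligase of activated receptors, fell by 0.57 and 0.73, and did not pass with libraries rescaled on protein-coding genes (-0.14 in flox and -0.43 in ΔIEC mice). That rescaling left 5 genes of the list higher and 1 lower in flox, and 2 higher and 1 lower in ΔIEC mice. Of all genes, 6540 were then higher and 1706 lower in flox, and 4414 and 1448 in ΔIEC mice. Il17rd and Lrig3 kept their calls and directions in both genotypes.

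Of 15 genes that ERK signalling is known to induce, 6 rose and 0 fell in flox tumours, and 7 rose and 0 fell in ΔIEC tumours, with median differences of 0.74 and 0.69. The called share of 40% in flox mice is near the 36.3% of all genes, and that in ΔIEC mice was 46.7% against 29.4%. In the upward direction alone, 16.6% of all genes rose in flox and 13.9% in ΔIEC mice. Ier3, an early-response gene, stood at 47.6 ± 4.40 FPKM in flox tumours and 10.04 ± 4.37 in adjacent colon (log2 difference 2.21, limma adjusted p = 5.95e-04), and rose by 2.54 in ΔIEC mice. Phlda1 stood at 78.6 ± 8.49 against 19.7 ± 8.18 in flox mice (2.01, limma adjusted p = 5.21e-04) and rose by 1.84 in ΔIEC mice. Myc, the growth regulator, rose by 1.12 and 1.23. The remaining 9 genes in flox mice and 8 in ΔIEC mice did not pass, among them Fos, Egr1, Etv4 and Etv5, which were picked for naming after their values were seen.

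Upstream, the cascade genes had medians near those of all genes, -0.07 in flox and -0.03 in ΔIEC mice. Of 19, 1 rose and 4 fell in flox tumours, and 2 rose and 3 fell in ΔIEC tumours. That is 26.3% of the list in each genotype, beside 36.3% and 29.4% of all genes. Map2k1, which encodes MEK1, fell from 66.8 ± 6.89 to 29.0 ± 1.98 FPKM in flox mice (-1.17, limma adjusted p = 6.26e-04) and by 0.98 in ΔIEC mice. Mapk3, which encodes ERK1, fell by 1.04 and 0.77, and Nras rose by 0.76 and 0.62. Rescaling on protein-coding genes changed the flox count to 10 higher and 2 lower, with Map2k1 and Mapk3 still lower. The sign of Grb2, which had fallen in flox tumours, turned. Of all 16970 genes, 6540 were then higher and 1706 lower in flox mice.

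Of 13 receptors, 4 rose and 4 fell in flox tumours, and 1 rose and 4 fell in ΔIEC tumours, which is 61.5% and 38.5% of the list beside 36.3% and 29.4% of all genes. Kit, the stem cell factor receptor, fell by 2.06 and 1.75, Fgfr3 fell by 1.76 and 2.23, and Erbb3 fell by 1.37 and 1.02. Kit is also in the mast cell marker list, where it is the marker that fell. Pdgfra, a fibroblast receptor gene that is also in the fibroblast marker list, rose by 1.32 in flox and 1.42 in ΔIEC mice. Of 16 ligands tested, 5 rose and 2 fell in each genotype, 43.8% of the list beside the same 36.3% and 29.4%. The 3 with the largest differences were the same in flox as in ΔIEC mice. These were Igf1 (2.58 and 2.16), Fgf7 (1.90 and 2.13) and Hgf (1.53 and 1.75), growth factor genes of stromal cells, and the summed fibroblast markers given above were higher in tumours too. Whether those cells account for the ligand differences was not tested.

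**Figure D5:**
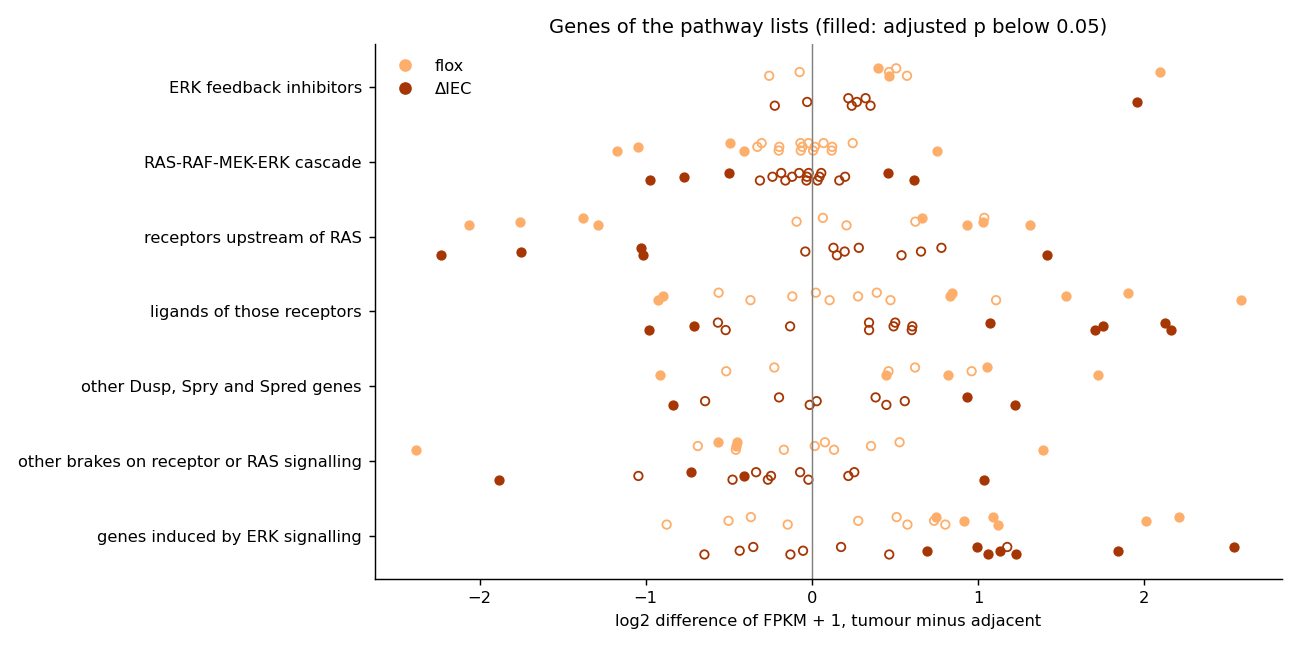
Differences of log2(FPKM + 1) between tumour and adjacent colon (horizontal axis) for every tested gene of 7 lists (vertical axis), flox above and ΔIEC below in each pair of rows, filled where the limma adjusted p was below 0.05. Dusp4 is the one feedback gene beyond 1, while the ERK-induced list has no filled point below 0 and receptors spread to both sides.

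Promoter windows of RefSeq, from 250 bases before to 50 bases after a gene's start on GRCm38.p6, were found for Dusp5, Dusp6, Spry1, Spry2, Spred1 and Spred2. They were searched on both strands for motifs of factors that ERK or Wnt signalling acts on: the ETS core CCGGAAG, the AP-1 site TGANTCA, the cyclic AMP response element TGACGTCA and its short form TGACG, the TCF/LEF site ATCAAAG, and the CArG box of serum response factor. The full cyclic AMP element contains the short form, so a match of the first is also one of the second. Dusp5 and Spred2 held matches, and these are the sequences printed, as the 100 bases before the start on the plus strand with the matches in capitals. The Dusp5 stretch is chr19:53529045-53529144, and the Spred2 stretch is chr11:19924342-19924441.
Dusp5: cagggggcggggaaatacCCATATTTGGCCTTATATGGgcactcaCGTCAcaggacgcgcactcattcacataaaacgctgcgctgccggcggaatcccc
Spred2: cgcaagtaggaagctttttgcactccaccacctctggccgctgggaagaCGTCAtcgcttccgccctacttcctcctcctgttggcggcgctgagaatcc
The Dusp5 window held 2 adjacent CArG boxes, with first bases 82 and 72 bases before the start, and a short cyclic AMP element on the other strand 55 bases before it. A CArG box was present in 1.63% of 32851 windows of this length. Spred2 held a short cyclic AMP element 51 bases before the start, as 20.8% of all windows held one. The ETS core (8.86% of all windows), the AP-1 site (7.81%), the TCF/LEF site (3.73%) and the full cyclic AMP element (1.79%) were not among the letters of the 6 windows. A match describes the letters and is not a measured binding site.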

How the data were processed

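Total RNA went into stranded TruSeq libraries, per the labels' protocols. The submitters' processing notes name FastQC, STAR 2.5, Cuffnorm and the genome build GRCm38. Cuffnorm's settings and an annotation were not given in the sources used here. What the authors deposited are log2 values of FPKM + 1 per transcript, without read depths, which leaves out count models. Values were unlogged to FPKM, then added up for each gene over GENCODE M21 transcripts, to which 118004 of 123062 transcripts (95.9%) matched. The rest held 4.36% to 7.44% of a library's FPKM.

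Genes that reached 1 FPKM in 3 or more of 12 libraries were tested with limma 3.58.1 in R 4.3.3 (pseudocount 1, a mean for each of 4 groups, eBayes with trend and robust, Benjamini-Hochberg within a comparison). All 12 libraries entered 1 fit, with 8 residual degrees of freedom, and the code was tested on simulated data. Alternatives were other pseudocounts, filters, scalings, transcript choices, blocks and left-out libraries.

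The 8 genes and every list were chosen with earlier results of these data known. All 8 genes are named; from each pathway list and tumour comparison, up to 3 called genes with the largest difference are named. Between libraries with the same replicate number in their titles, deviations from group means correlated at -0.40 to 0.19. Between adjacent and tumour libraries that share a code in their descriptions, the deviations correlated at -0.19 to 0.17. With 3 libraries a group, such correlations cannot decide whether a shared code marks samples of the same mouse, and the labels do not say. The main fit left the libraries unpaired, and pairing entered only as an alternative.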

Additional observations from a re-analysis of the deposited data

How the results depend on the processing

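The precision was limited by 3 libraries a group and an unknown depth. Dusp4 kept its tumour call and its direction under all 20 alternatives in flox (1.91 to 2.49) and in ΔIEC mice (1.68 to 2.26), where its adjusted p reached 0.0450. Neither genotype comparison called a feedback gene under any alternative. With libraries rescaled on protein-coding genes, 7 feedback genes were called in flox and 4 in ΔIEC mice. Of all 16970 genes, 8246 and 5862 were then called. The tumour differences of Spry2 turned to 0.16 (flox) and 0.062 (ΔIEC) and those of Spred2 to 0.36 and 0.27, the genotype differences to 0.025 (Spry2) and 0.042 (Spred1) in adjacent colon and -0.021 (Spry4) in tumours, and the interaction terms to -0.095 for Spry2 and -0.088 for Spred2. Quantile normalization turned Spred2 to 0.091 in flox and 0.086 in ΔIEC mice with an interaction of -0.00562, Spry1 in adjacent colon to -0.054 and Spry2 in tumours to 0.00109. Median centring turned Spry1 in adjacent colon to -0.016 and Dusp5 in tumours to 0.00325. With the largest transcript only, 2 feedback genes were called in ΔIEC mice, Spred2 there turned to 0.055, and Spry1 turned to -1.26 (adjacent), 0.32 (tumours) and 1.59 (interaction). The cause of these turns was not tested.

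A fixed block on the description code took the genes called in ΔIEC mice from 4981 to 651, where it rests on 2 pairs, and turned Spred2 there to 0.12. It called 5959 genes in flox mice, and Spred1 missed the threshold (adjusted p = 0.0515). A block on the title number called 5387 and 4115 genes, with 3 and 1 feedback genes as without it, and the pairing as a random effect had a consensus correlation of 0.03. Fitting only the groups compared called 2564 genes in ΔIEC tumours against adjacent colon and 1 between genotypes in tumours, and testing without a filter called 8 there. Of 2 alternatives chosen after seeing the data, the first kept only codes present in both tissues. It called 1697 genes in ΔIEC mice and 301 between genotypes in adjacent colon. It also turned Spred2 to 0.12 in ΔIEC mice, Spred1 to 0.084 in adjacent colon, and Dusp6 and Spry2 to 0.011 and 0.16 between tumours. The other left out the 3 adjacent libraries high in fibroblast markers: it called 2 feedback genes in ΔIEC mice, 4 genes between genotypes in adjacent colon and 3 for the interaction. It turned Dusp5 to -0.054 in ΔIEC mice and Dusp6 to -0.00849 in adjacent colon, and the interaction terms of Spry2, Spred1 and Spred2 to -0.00957, 0.10 and -0.16.

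Leaving out 1 library at a time gave 2 to 3 feedback genes called in flox and 1 to 2 in ΔIEC mice, out of 3891 to 5911 genes in flox, the lowest without flox adjacent 2, and 2910 to 5078 in ΔIEC mice, the lowest without ΔIEC tumour 1. Between genotypes it called 0 to 299 genes in adjacent colon, with 299 without ΔIEC adjacent 1, 0 to 3 in tumours, and 0 to 1 for the interaction. Differences near 0 then changed sign. In ΔIEC mice Spred2 ranged from -0.080 to 0.074. Between genotypes in adjacent colon Dusp6 ranged from -0.055 to 0.23, Spry1 from -0.0069 to 0.064, Spry2 from -0.18 to 0.043 and Spred1 from -0.16 to 0.084. In tumours Dusp5 ranged from -0.21 to 0.22, Dusp6 from -0.25 to 0.069, Spry2 from -0.27 to 0.16 and Spry4 from -0.29 to 0.25. The interaction terms ranged from -0.42 to 0.16 for Dusp4, -0.22 to 0.22 for Spry2, -0.53 to 0.013 for Spry4 and -0.0064 to 0.15 for Spred2.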
